A study of Mus musculus with 6 samples.

Results

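The genes described here are 8 mouse surface-protein genes: the Ly6 family genes Ly6a, Ly6c1, Ly6c2, Ly6d, Ly6e and Ly6k, together with Thy1 and Cd44. They were found by matching the Ensembl identifiers of the deposited gene files to these symbols, and they are 8 of 55487 genes in the files. Values come from RNA sequencing of polyadenylated RNA from naive CD4+ T cells (labelled TN) of untreated wild-type C57BL6/J mice, with 3 libraries from the spleen and 3 from the mesenteric lymph node (mLN), which drains the gut. All 6 libraries share genotype, strain and the absence of treatment. The sources used here give neither the age of the mice nor the markers by which naive cells were isolated. The comparison asks how the RNA level of each gene differs between naive cells of the lymph node and of the spleen.

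Ly6 proteins carry a compact three-finger fold, and most are held on the outer membrane by a glycosylphosphatidylinositol (GPI) lipid anchor in place of a membrane-spanning stretch. Thy1 is a small GPI-anchored immunoglobulin-type protein that covers mouse T cells, whereas CD44 spans the membrane and binds the matrix polymer hyaluronan. In mouse T cells, high surface CD44 marks cells that have met antigen, low CD44 is used to gate naive cells, and Ly-6C and Ly-6A (Sca-1) vary between naive cells and increase on many activated cells.

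All 6 Ly6 genes lie on chromosome 15 (mm10 coordinates, annotated by GENCODE vM21), in the order Ly6d (74762056 to 74763620), Ly6k (74796874 to 74799986), Ly6e (74955051 to 74959905), Ly6a (74994877 to 74998031), Ly6c1 (75044018 to 75048830) and Ly6c2 (75108158 to 75111970). Thy1 lies on chromosome 9 (44043384 to 44048579) and Cd44 on chromosome 2 (102811141 to 102901665). Ly6e and Thy1 are on the plus strand and the other 6 genes on the minus strand. Ly6c1 and Ly6c2 are close copies: their annotated coding sequences of 396 bases were 97.73% identical, with 9 mismatches. The first 90 coding bases hold 6 of these differences, and are shown 5′ to 3′ because only reads over such bases separate the copies. Capitals mark the differing bases.
Ly6c1: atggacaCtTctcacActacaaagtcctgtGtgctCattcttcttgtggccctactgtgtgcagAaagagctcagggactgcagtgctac
Ly6c2: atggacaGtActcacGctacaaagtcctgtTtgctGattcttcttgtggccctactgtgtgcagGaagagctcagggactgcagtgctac

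The longest stretch without a difference in the aligned coding sequences was 188 bases. Of all 50-base words in the annotated Ly6c1 transcripts, 21.5% also occurred in Ly6c2 and 32.8% in some other gene. For Ly6a 19.0% of its 50-base words were shared, most of them with Ly6c1 (15.03%), and for Ly6e, Ly6d, Ly6k, Thy1 and Cd44 the share was 0%. Around the start sites the copies differ more: in an alignment with gaps, the 300-base RefSeq promoter windows (GRCm38.p6) were 62.3% identical. The alignment had 208 identical positions, 58 mismatches and 68 gap positions. The gap positions lower the identity, and any offset between the 2 windows adds to them. Each window holds 250 bases before the start site and 50 after. RefSeq lists 2 windows for each copy, and the first of each was aligned. The 250 bases before the start site of that window are shown. The copies, despite near-identical coding sequence, had very different RNA levels in the values given further on. Whether the upstream sequence plays a part in that was not tested. Capitals mark the only matches to TATAAA, the box bound by TBP in many promoters, or to TGTGGT, a core bound by RUNX factors, both searched on both strands of these windows. The first sequence is chr15:75048838-75049087 and the second chr15:75111972-75112221, both on the minus strand.
Ly6c1: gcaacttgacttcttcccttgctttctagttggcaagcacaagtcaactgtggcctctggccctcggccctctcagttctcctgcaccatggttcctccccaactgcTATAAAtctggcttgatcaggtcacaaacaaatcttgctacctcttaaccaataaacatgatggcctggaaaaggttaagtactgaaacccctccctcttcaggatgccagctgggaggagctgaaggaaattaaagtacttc
Ly6c2: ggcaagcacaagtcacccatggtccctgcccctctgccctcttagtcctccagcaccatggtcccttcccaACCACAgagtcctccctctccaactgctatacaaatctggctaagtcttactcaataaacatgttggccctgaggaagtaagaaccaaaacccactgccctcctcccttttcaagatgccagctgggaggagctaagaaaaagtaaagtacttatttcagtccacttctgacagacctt

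The first Ly6c1 window held TATAAA from position -143 relative to the start site, while the second Ly6c1 window and both Ly6c2 windows did not hold these letters. Among 32817 mouse promoter windows of the same length, 13.6% held TATAAA. The first Ly6c2 window held the RUNX core from position -179, in the reverse orientation, and the second held it from -213, as did 16.8% of all windows. The gamma-interferon site TTCNNNGAA, present in 8.29% of windows, occurred in none of the windows of either copy. RefSeq promoter windows were matched for 3 of 8 genes, the third being Cd44, whose window held none of these 3 motifs. A letter match describes the sequence and is not evidence of binding.

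Library totals ran from 14224966 to 17862485 expected counts in spleen and from 13205499 to 20054205 in mLN, and 3 counts are 0.150 to 0.227 CPM when divided by these totals alone. All other CPM values are counts divided by library sizes adjusted by trimmed-mean factors. Whether the replicates are different animals is not stated in the labels. The p-values below thus set the difference between the tissues against the spread of these libraries within a tissue, which may be only technical. Cd4, the defining coreceptor, was at 929 ± 45.1 CPM in the spleen libraries and at 890 ± 12.4 CPM in those of the mLN (SD, n = 3). The mitochondrial share of counts was 3.70% to 4.11% in spleen and 2.12% to 2.43% in mLN. FPKM values summed to 828219 to 831266 in spleen libraries and 704454 to 711273 in mLN libraries, so the step from FPKM to TPM multiplied values by 1.21 in spleen and by 1.41 in mLN.

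With edgeR's quasi-likelihood test on counts, 5 of 8 genes passed the threshold as lower in mLN (adjusted p of 0.05, Benjamini-Hochberg over 12486 genes), 0 were higher and 3 were not called. Over all genes tested, 13.5% were called lower and 16.1% higher, 29.6% in all. Leaving out spleen replicate 1, mLN replicate 1 or mLN replicate 2 left 3 of these calls, because Ly6d and Cd44 were lost. The median log2 fold change, mLN minus spleen, was -0.36 over the 8 genes and -0.01 over all genes tested. The CPM ranges of the tissues did not overlap for 6 of 8 genes, against 41.8% of all genes tested. Of these 6, 5 were lower in mLN and 1 higher, against 20.3% and 21.5% of all genes. The 8 genes were chosen with earlier results of these data known, so these counts do not test them as a set. Ly6c1 had the largest fall among the abundant genes, Ly6a, Thy1 and Cd44 fell less, Ly6d fell at a very low level, and Ly6e, Ly6c2 and Ly6k were not called. Because these are bulk libraries, fewer cells of one type and less RNA per cell cannot be told apart.

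**Figure D1:**
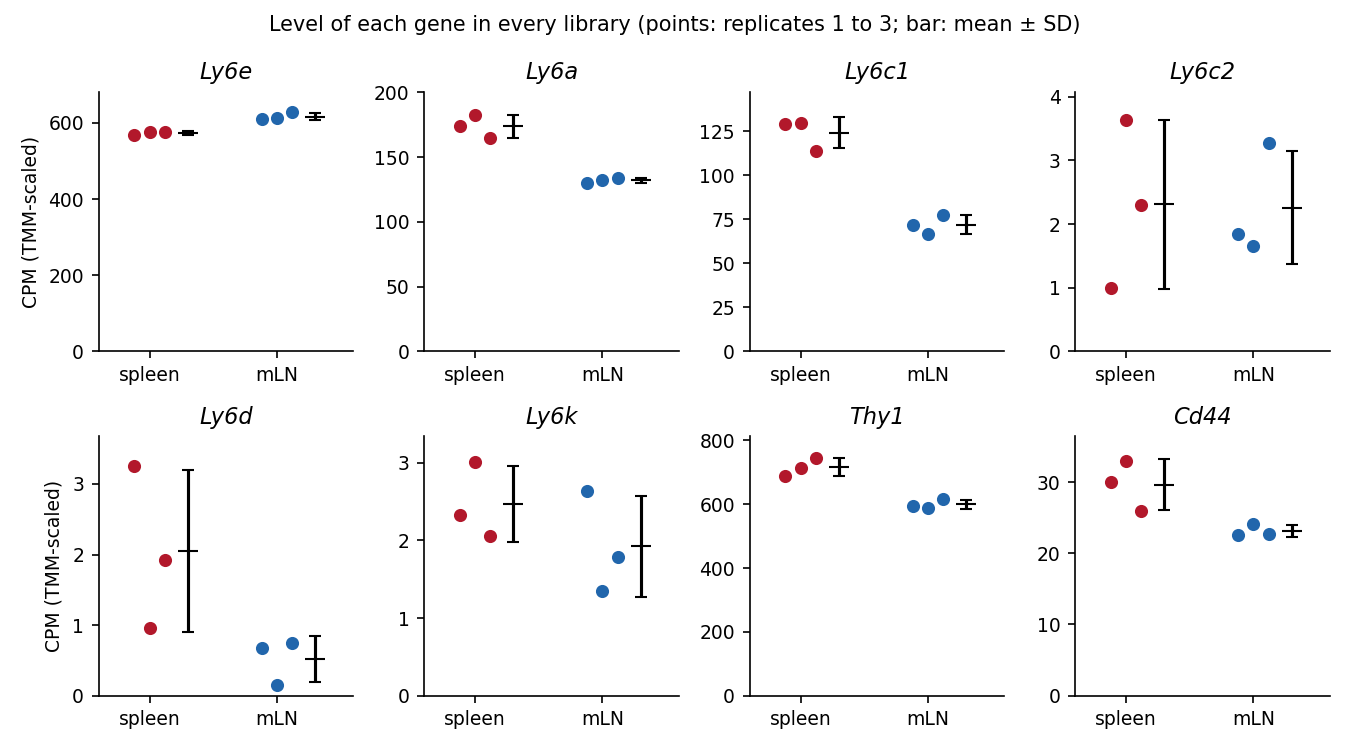
Level of each of the 8 genes in CPM (vertical axes, linear, from 0) in every library, with spleen in red and mLN in blue; black bars are mean ± SD of 3 libraries. Ly6a, Ly6c1, Ly6d, Thy1 and Cd44 sat lower in all mLN libraries than in any spleen library, Ly6e sat higher, and Ly6c2 and Ly6k overlapped.

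Ly6c1 encodes Ly-6C1, one of the proteins read by anti-Ly-6C antibodies and present on subsets of T cells, monocytes and endothelium. It was at 129.0, 129.7 and 114.0 CPM in spleen replicates 1, 2 and 3 and at 71.6, 66.7 and 77.8 CPM in mLN replicates 1, 2 and 3. The lowest spleen library lay well above the highest mLN library. Its log2 fold change was -0.79 (SE 0.0853, adjusted p = 6.7e-07, edgeR), a spleen level 1.72 times that of mLN. On the deposited TPM scale, which divides by transcript length, Ly6c1 was at 339, 297 and 288 in spleen and at 204, 200 and 206 in mLN, again without overlap.

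Ly6c2 encodes Ly-6C2, the copy best known from inflammatory monocytes and memory CD8 T cells. It was at 0.992, 3.64 and 2.30 CPM in spleen and at 1.84, 1.65 and 3.28 CPM in mLN. The groups overlapped entirely, and spleen replicate 1 was the lowest of all libraries. Its log2 fold change was -0.03 (SE 0.481, adjusted p = 0.970, edgeR), and its 95% interval by the normal approximation ran from -0.98 to 0.91, a range that holds the value of Ly6c1. The sign of this value turned to higher in mLN on TPM (0.25) and in several other settings.

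RSEM assigns reads that fit both copies by an estimate. Expected counts were whole numbers in 6 of 6 libraries for the other 6 genes and in 0 of 6 for Ly6c1 and Ly6c2. Added together the copies gave 1840, 2351 and 1869 counts in spleen and 1197, 912 and 1637 in mLN, whole in every library at the deposited 2 decimals. The sum, which does not depend on how reads were split within the pair, was at 130.0, 133.4 and 116.3 CPM in spleen and 73.4, 68.4 and 81.0 CPM in mLN. Every mLN library lay below every spleen library, the ratio of means was 0.587, and the two-sided exact permutation p was 0.1, the smallest that 3 against 3 libraries can give. Ly6c1 took 98.2% ± 0.993 of the pair's counts in the spleen libraries and 97.0% ± 0.916 in those of the mLN (SD, n = 3). The ranges of this share overlapped (exact permutation p = 0.3, two-sided).

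Ly6a encodes Sca-1, the stem cell antigen that T cells also carry and that interferons and activation raise. It was at 173.9, 182.6 and 164.7 CPM in spleen and at 130.2, 132.0 and 133.6 CPM in mLN. The mLN libraries were close together and all below the spleen libraries. The log2 fold change was -0.40 (SE 0.0691, adjusted p = 1.6e-04, edgeR). The difference on log2(TPM + 1), a scale on which the median of all genes tested was 0.21, was -0.11 (adjusted p = 0.204, limma). With TPM centred on each library's median it was -0.35 (adjusted p = 0.00704, limma). The TPM values of 354, 362 and 335 in spleen and 319, 333 and 324 in mLN did not overlap.

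Ly6e encodes a thymic shared antigen expressed broadly on lymphocytes and known as an interferon-induced modifier of virus entry. It was at 567, 575 and 576 CPM in spleen and at 609, 613 and 627 CPM in mLN. All mLN libraries were higher than all spleen libraries, but the difference was small: the log2 fold change was 0.11 (SE 0.0533) and did not pass the threshold (adjusted p = 0.148, edgeR). On TPM the gap was wider, with 953, 931 and 946 in spleen and 1183, 1237 and 1212 in mLN. There the log2 difference was 0.36 (SE 0.0450, adjusted p = 0.00154, limma), and with TPM centred on each library's median it was not called.

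Ly6d encodes a Ly6 protein used to mark early B-lineage progenitors and some epithelia. It had 46, 17 and 31 counts in spleen and 11, 2 and 15 counts in mLN, or 3.25, 0.965 and 1.93 CPM and 0.674, 0.150 and 0.743 CPM. The ranges did not overlap, although spleen replicate 2 lay near the highest mLN library. The log2 fold change was -1.91 (SE 0.665, adjusted p = 0.0345, edgeR), and the call was lost without spleen replicate 1 (adjusted p = 0.197), mLN replicate 1 (0.0567) or mLN replicate 2 (0.119), and with limma-voom (0.0670). Ly6k, best known from testis, was at 2.33, 3.01 and 2.05 CPM in spleen and 2.64, 1.35 and 1.78 CPM in mLN. Its ranges overlapped, and its log2 fold change of -0.35 (SE 0.443) was not called (adjusted p = 0.603, edgeR). The antisense gene Gm17189 overlaps Ly6k and had at most 2 counts in any library.

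Markers of other cell types also differed between the tissues, and most lists that did were lower in mLN. Of 14 tested B cell markers 11 were called lower in mLN, and their summed level was 168 to 183 CPM in spleen and 38.8 to 52.2 CPM in mLN. Among all genes tested 13.5% were called lower, and the counts of each marker list here are to be read beside that share. All 8 tested neutrophil markers were called lower, with sums of 49.9 to 52.0 and 0.225 to 1.63 CPM. Ly6g, which defines neutrophils and lies in the same chromosome 15 cluster, was at 0 in all 6 libraries. Of 12 tested monocyte and macrophage markers 10 were called lower, with sums of 276 to 292 and 182 to 192 CPM, including Lyz2 at 18.2 ± 0.570 and 1.83 ± 0.678 CPM (SD, n = 3). The median log2 fold change of this list was -3.18, a larger fall than that of the sums. The most abundant markers, led by Ctss, weigh most in the sums. Plasmacytoid dendritic cells also express Ly6c and Ly6a. Their markers summed to 100.5 to 110.2 CPM in spleen and 105.2 to 120.2 CPM in mLN, of which Pacsin1 (50.035 and 65.3 CPM on average) and Bst2 (36.3 and 36.0) made up most. Their defining marker Siglech had 19, 24 and 10 counts in spleen and 0, 0 and 1 in mLN. NK cell markers summed to 49.2 to 54.8 CPM in spleen and to more in mLN, 57.3 to 69.9, again mostly from 1 gene, Prf1 (43.7 and 59.8 CPM), while the NK receptor Ncr1 had 2, 24 and 6 counts in spleen and 0, 0 and 1 in mLN. Regulatory T cell markers summed to 149 to 164 and 132 to 146 CPM. The part of these cells in the results for Ly6a, Ly6c1, Ly6d and Cd44 was not tested.

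**Figure D2:**
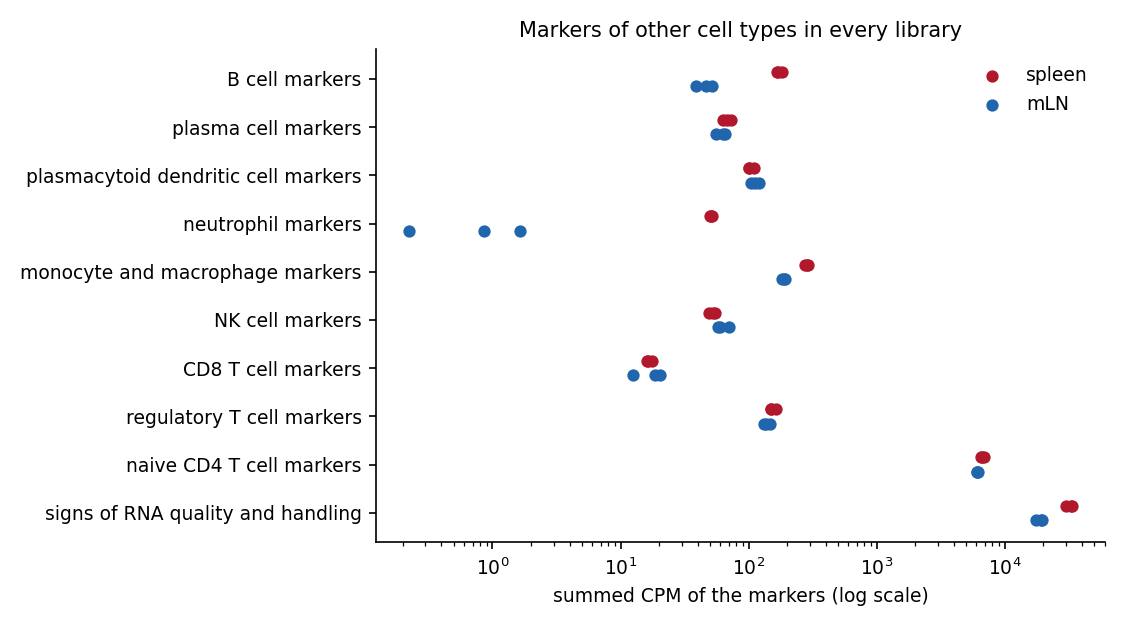
Summed CPM (horizontal axis, log scale) of lists of cell type markers and of the list of RNA quality and handling genes, in each spleen library (red) and mLN library (blue). The endothelial and stromal list, with 1 tested marker, and the red cell list, with 0, are not shown. Neutrophil sums separated most, from 49.9 to 52.0 in spleen against 0.225 to 1.63 in mLN, while CD8 T cell marker sums overlapped.

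Thy1, the pan-T-cell antigen of the mouse, was at 690, 713 and 745 CPM in spleen and at 593, 589 and 617 CPM in mLN. The tissues did not overlap, and the log2 fold change was -0.26 (SE 0.0551, adjusted p = 0.00121, edgeR). On TPM Thy1 was at 671, 675 and 661 in spleen and 679, 706 and 656 in mLN, the ranges overlapped, and the log2 difference was 0.02 (adjusted p = 0.780, limma). Centred on each library's median, which removes the shift of all genes on that scale, it was -0.22 (adjusted p = 0.0215, limma).

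Cd44 encodes the hyaluronan receptor whose protein level is the usual divider of naive and antigen-experienced T cells. It was at 30.1, 33.0 and 25.9 CPM in spleen and at 22.6, 24.1 and 22.8 CPM in mLN. The ranges did not overlap, but spleen replicate 3 lay near mLN replicate 2. The log2 fold change was -0.36 (SE 0.127, adjusted p = 0.0387, edgeR), a value close to the threshold. The call was lost when spleen replicate 1 (adjusted p = 0.0942), spleen replicate 2 (0.196), mLN replicate 1 (0.0956), mLN replicate 2 (0.0575) or mLN replicate 3 (0.0734) was left out, and on log2(TPM + 1) the difference was -0.09 (adjusted p = 0.727, limma), or -0.33 with centring (adjusted p = 0.179, limma). The small nuclear RNA gene Gm23731, which overlaps Cd44, was at 0 in all libraries.

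**Figure D3:**
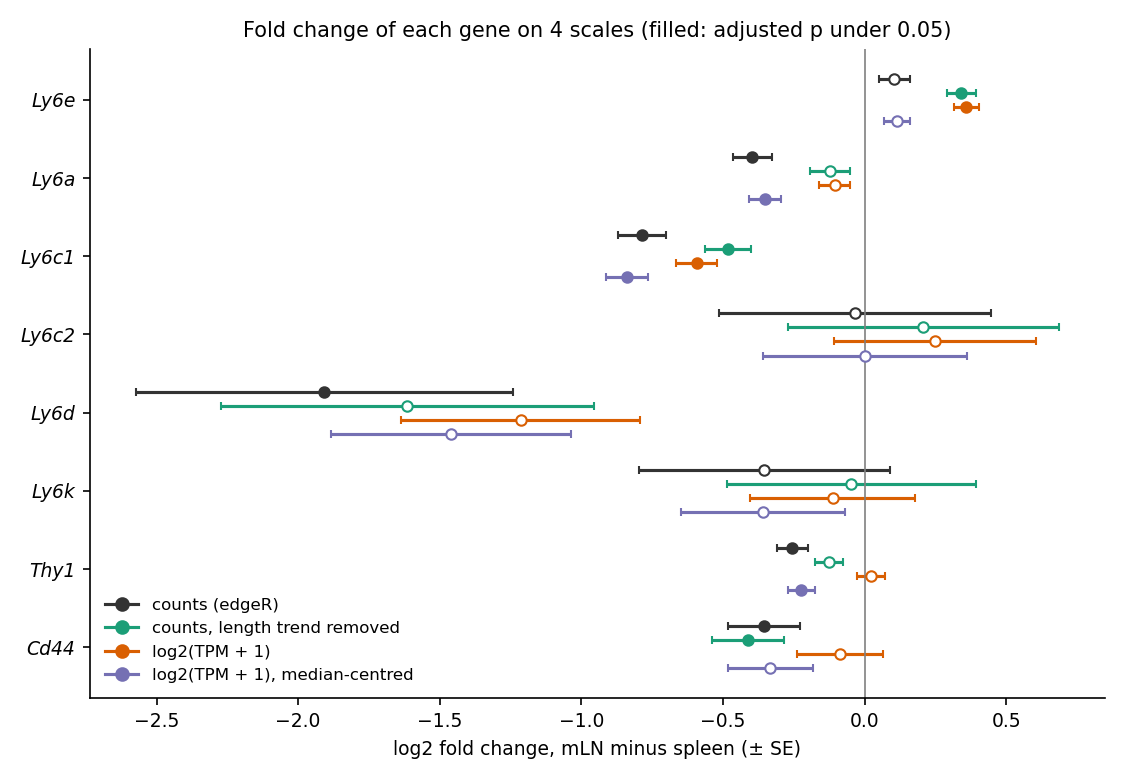
Log2 fold change, mLN minus spleen, with its SE (horizontal axis) for each of the 8 genes from counts, counts with the trend on transcript length removed, log2(TPM + 1), and the same centred on each library's median; filled points have an adjusted p under 0.05. Ly6c1 was called lower on all 4 scales, Ly6e was called higher after removal of the length trend (0.34) and on log2(TPM + 1) (0.36), and Thy1 crossed 0 on log2(TPM + 1) without centring.

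How many genes were called depended on the scale. On log2(TPM + 1) without centring 3.08% of all genes tested were called lower and 22.2% higher, and 1 of 8 genes was called lower (Ly6c1) and 1 higher (Ly6e). With the length trend removed from the counts, 2 were called lower (Ly6c1 and Cd44) and 1 higher (Ly6e), beside 8.94% and 14.6% of all genes (23.6% in either direction). With TPM centred on each library's median, 3 were called lower (Ly6a, Ly6c1 and Thy1) and none higher, beside 7.69% and 6.45%. Only Ly6c1 kept its call in every setting run, from -0.48 with the length trend removed to -0.86 without mLN replicate 3.

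Ratios between genes within one library cancel the library scale, but not a trend of fold change with transcript length. The CPM ratio of Ly6c1 to Ly6e, in log2, was -2.14, -2.15 and -2.34 in spleen and -3.09, -3.20 and -3.01 in mLN. The mLN ratios were all lower, by 0.89 on average. Ly6c1 also fell against Ly6a by 0.39, against Thy1 by 0.53 and against Cd44 by 0.44, each without overlap between the tissues. Ly6e rose relative to Thy1 by 0.36 and relative to Cd44 by 0.45, and Ly6a fell relative to Ly6e by 0.50, again without overlap. Each of these 7 ratios reached the exact permutation p of 0.1, the smallest possible, or 0.143 adjusted over the 10 pairs compared. For Ly6a against Thy1 (-0.14), Ly6a against Cd44 (-0.05) and Thy1 against Cd44 (0.09) the ratios overlapped between tissues (exact permutation p = 0.2, 0.6 and 0.5). With the length trend removed from the counts, the log2 fold change was -0.48 for Ly6c1 and -0.41 for Cd44, close to each other. It was -0.12 for Ly6a, -0.13 for Thy1 and 0.34 for Ly6e. Ratios were not computed on that scale.

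Levels can be ordered between genes by TPM. In both tissues the mean TPM fell from Ly6e (943 in spleen, 1211 in mLN) through Thy1 (669 and 680), Ly6a (350 and 325) and Ly6c1 (308 and 203) to Cd44 (10.3 and 9.65). Neighbours in this order did not overlap within a tissue, apart from Ly6a and Ly6c1 in spleen. Below Cd44 came Ly6k, Ly6d and Ly6c2 in spleen, whose ranges overlapped from one to the next, and Ly6k, Ly6c2 and Ly6d in mLN. In mLN Cd44 overlapped Ly6k, Ly6k overlapped Ly6c2, and Ly6d lay below Ly6c2. Of the summed TPM of the 6 Ly6 genes, Ly6e took 57.4% to 59.7% in spleen and 68.7% to 69.6% in mLN. Ly6c1 took 18.2% to 20.4% and 11.3% to 11.9%, and Ly6a 21.1% to 22.5% and 18.4% to 18.7%. None of these 3 shares overlapped between the tissues. The shares are parts of the same sum, so the Ly6e share also rises where Ly6c1 and Ly6a fall. Ly6e itself was not called on counts (0.11, adjusted p = 0.148, edgeR).

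**Figure D4:**
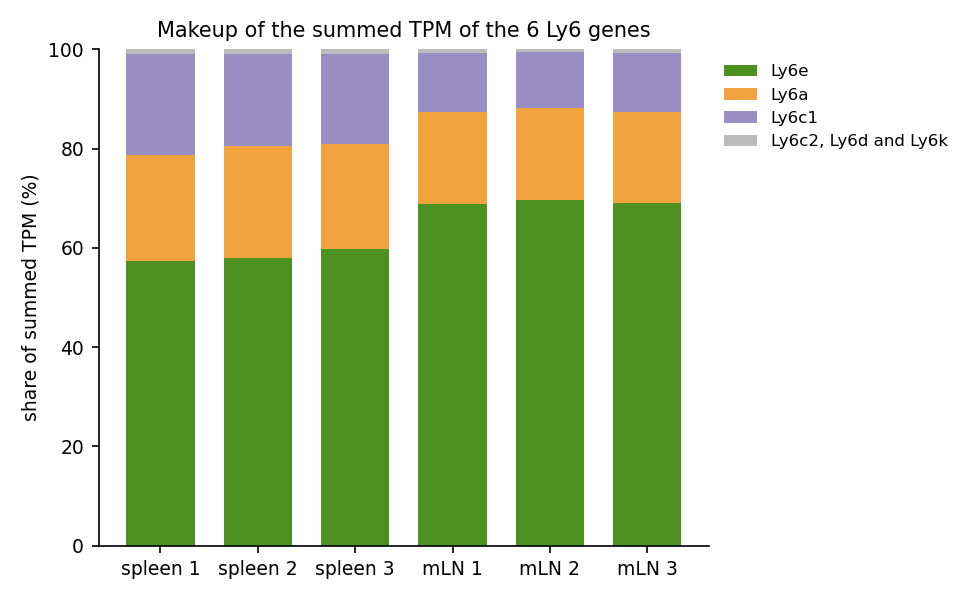
Share of the summed TPM of the 6 Ly6 genes (vertical axis, percent, from 0 to 100) taken by Ly6e, Ly6a, Ly6c1 and the other 3 genes together, in each library (bars). The Ly6e share was 57.4% to 59.7% in spleen and 68.7% to 69.6% in mLN, and the Ly6c1 share was smaller in every mLN library. The shares are parts of the same sum, so a fall of some raises the others.

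RSEM also gives each gene an abundance-weighted transcript length, which reads isoform makeup apart from level. For Ly6e it was 979, 996 and 996 nucleotides in spleen and 1008, 1005 and 999 in mLN, for Ly6c1 721, 780 and 742 against 772, 774 and 801, and for Cd44 3853, 3729 and 3490 against 3557, 3774 and 3785. Only Ly6e was without overlap, and no gene passed the test (for Ly6e exact permutation p = 0.1, the smallest possible, and 0.8 adjusted over the 8 genes). The mean Ly6e lengths were 990.3 in spleen and 1004 in mLN, a difference of 13.8 nucleotides, whereas by RSEM's effective length the difference was 0.1 (exact permutation p = 1). Ly6d has 1 annotated transcript of 744 nucleotides, so its length could not vary.

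The chromosome 15 cluster from Psca to Gpihbp1 (74714839 to 75599481) holds 50 annotated genes, 25 of them protein coding. Of these 25, 8 passed the filter on low counts and 13 were at 0 in all libraries, among them Ly6f, Ly6g, Ly6h and Ly6l. Ly6i had 33 counts in all. Besides the 6 Ly6 genes described, the protein-coding genes tested were Them6 and Lynx1, and the lincRNA Gm28068 was tested too. These neighbours were chosen by position: Them6 rose in mLN by 0.59 on the log2 scale (adjusted p = 0.00906, edgeR), and Lynx1, a Ly6-type modulator of acetylcholine receptors, was not called (-0.25, adjusted p = 0.593, edgeR), nor was Gm28068 (-0.28, adjusted p = 0.797). Within one cluster, on counts, Ly6c1, Ly6a and Ly6d fell, Them6 rose and Ly6e, Ly6c2, Ly6k, Lynx1 and Gm28068 were not called.

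Among other Ly6 and urokinase-receptor-domain genes, 33 of 38 listed were in the files, 26 were at 0 in all libraries and 4 were tested. Of these 0 were called higher and 1 lower, Lypd6b, at 30.6 ± 1.97 CPM in spleen and 21.4 ± 0.686 in mLN (log2 fold change -0.52, adjusted p = 0.00269, edgeR). Of 27 tested enzymes that build and attach GPI anchors, 5 were called higher, 3 lower and 19 were not called, so 8 were called in all, beside 29.6% of all genes tested. Their median was -0.05. Pigs and Pigt, subunits of the transamidase that joins the anchor to the protein, rose by 0.64 and 0.53. Of its other subunits Gpaa1 rose by 0.45, while Pigk (-0.11, adjusted p = 0.396, edgeR) and Pigu (-0.34, adjusted p = 0.0573, edgeR) were not called. Pigo, which adds phosphoethanolamine to the anchor, rose by 0.44. Pigx, a partner of the first mannosyltransferase, fell by 0.39 on the count scale. On log2(TPM + 1) the split was 5 higher and 0 lower, beside 22.2% and 3.08% of all genes tested. With TPM centred on each library's median it was 1 higher and 2 lower, beside 6.45% and 7.69%.

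A list made up mostly of other GPI-anchored T cell proteins was mixed, with 2 higher and 4 lower of 12 tested and a median of -0.12. Over all genes tested 16.1% were called higher and 13.5% lower. The 12 include Ly9, a receptor that spans the membrane, which was not called (-0.10, adjusted p = 0.263, edgeR). The SLAM-family ligand Cd48 fell from 118 ± 8.05 to 85.3 ± 4.11 CPM, Cd52 from 345 ± 23.1 to 273 ± 12.7, and the complement regulator Cd55 from 102 ± 8.13 to 75.2 ± 4.88 (SD, n = 3). The ADP-ribosyltransferase Art2b rose from 137 ± 6.97 to 178 ± 3.12 CPM. By log2(TPM + 1), 2 of the list were called higher and 0 lower, beside 22.2% and 3.08% of all genes tested. With TPM centred on each library's median the split was 1 higher and 3 lower, beside 6.45% and 7.69%. With the length trend removed it was 2 higher and 3 lower, beside 14.6% and 8.94%.

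Of 16 tested CD44 partners and hyaluronan genes, 4 were called higher and 1 lower, beside 16.1% and 13.5% of all genes tested. Their median was 0.10. Ezr, the ezrin that ties CD44 to actin, rose by 0.39, the kinase Fyn by 0.47 and the sheddase Adam10 by 0.25. Cd74, which pairs with CD44 as a receptor and is also on the B cell marker list, fell by 2.10. Of 18 tested regulators of CD44 exon splicing, 5 were higher and 3 lower, beside the same shares of all genes. They included Khdrbs1 (Sam68, 0.34), Celf1 (0.36) and Hnrnpll (0.40), which rose, and Srsf3 (-0.40), which fell. The splicing split was 12 higher and 0 lower on log2(TPM + 1), where 22.2% and 3.08% of all genes were called. It was 6 higher and 2 lower with the length trend removed, beside 14.6% and 8.94%.

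Because Cd44 and Ly6c are used to tell naive from antigen-experienced cells, lists of both states were read from the same fit. Over all genes tested 16.1% were called higher and 13.5% lower, 29.6% in all, and both lists are to be read beside these shares. Of 19 tested genes of antigen-experienced T cells, 1 was called higher and 5 lower, with a median of -0.50. S100a10, an annexin partner, fell from 104 ± 1.53 to 55.4 ± 2.82 CPM, the galectin Lgals1 from 48.5 ± 2.39 to 27.9 ± 1.94, and Crip1 from 97.2 ± 7.31 to 66.6 ± 3.27, whereas the integrin chain Itgal rose from 571 ± 17.2 to 685 ± 31.2 (SD, n = 3). With the length trend removed the split was 0 higher and 6 lower, beside 14.6% and 8.94% of all genes tested, but not of the same genes. S100a10 (-0.57) and Lgals1 (-0.50) kept their calls, whereas Crip1 lost its call (-0.11, adjusted p = 0.395, edgeR). Itga4 (-0.37) and Itgb1 (-0.29), not called on counts, were called lower there. Genes of naive T cells went both ways, with 7 higher and 5 lower of 16. On log2(TPM + 1) the split was 10 and 3, beside 22.2% and 3.08% of all genes tested. With TPM centred it was 7 and 5, beside 6.45% and 7.69%. Il7r, the interleukin-7 receptor, fell by 0.82, while Igfbp4 rose by 0.85 and the repressor Bach2 by 0.64.

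Ly6a and Ly6e are also counted among interferon-responsive genes. Of 30 tested interferon-stimulated genes, 15 were called higher in mLN and 6 lower, beside 16.1% and 13.5% of all genes tested. Their median was 0.31. The RNA-sensing synthetases Oas2 and Oas3 rose by 1.12 and 0.93 and Parp14 by 0.47, and the GTPase Igtp fell by 0.58. The split was 17 higher and 1 lower on log2(TPM + 1), where 22.2% and 3.08% of all genes tested were called. It was 8 higher and 2 lower with TPM centred on each library's median, beside 6.45% and 7.69%. Ly6a fell and Ly6e was not called on the count scale.

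Genes with the most similar profiles were searched among the other tested genes with a mean of at least 20 CPM (6624, or 6625 for Ly6d), by the root mean square difference of centred log2 CPM over the 6 libraries. For Ly6c1 the nearest was Lgals1, at 0.0391, which itself fell by 0.79, followed by Ppia (0.0597) and Rpl31 (0.0605), a pair of genes with many pseudogene copies. For Ly6a they were Idh3g (0.0257), Pdlim1 (0.0267) and Psmd13 (0.0284). For Thy1 they were AI467606 (0.0158), Rhoh (0.0219) and Rsrp1 (0.0287), and for Cd44 Tmco1 (0.0254), Trnt1 (0.0387) and Irgm2 (0.0418). No close profile was found for Ly6d: the nearest, mt-Nd4l, was 0.683 away, and Cd74 and Rn7s1 came next at 0.804 and 0.896.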

How the data were processed

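Per the labels' protocols, RNA was extracted with RNAiso PLUS, cleaned on NucleoSpin columns and made into directional libraries (NEBNext Ultra II). STAR, RSEM and mm10 are named in the submitters' processing notes without versions. The sources used here give neither the annotation release nor the strand setting.

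Per the file headers, the deposited expected counts are raw RSEM estimates for each gene, with no scaling. The deposited TPM and FPKM values are length-scaled abundances that the authors took from RSEM, per the file headers. Transcript and effective lengths in nucleotides are other columns of the same files. Symbols were matched for 55141 of 55487 identifiers, and coordinates came from GENCODE vM21.

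Expected counts were rounded, filtered with filterByExpr (12486 genes left), scaled by TMM and tested with edgeR 4.0.16 (quasi-likelihood, robust, two-sided, tissue as the only term), adjusted by Benjamini-Hochberg over all genes tested at a threshold of 0.05. CPM values are TMM-scaled. Standard errors were taken as |log2 fold change| / sqrt(F). TPM was tested with limma 3.58.1 on log2(TPM + 1). DESeq2 1.42.0, R 4.3.3 and Python 3.11.15 were also used. Single values were compared by exact permutation. Replicates differed by more than sampling noise (chi-square per degree of freedom 5.60 to 12.1), so each library counts once. The edgeR script was tested on simulated data.

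The members and lists were chosen with earlier results of these data known. Named were all 8 genes, of each pathway list up to 4 called genes with the smallest p, of marker lists up to 3 of the highest CPM, and for each called gene the 3 nearest profiles. Some further genes of the lists are named beside these where they limit a reading. The result for 1 gene under this rule is not reported here. Alternatives covered other scale factors, tools, filters, units, pseudocounts, the replicate block, length and GC trends (loess span 0.3) and each library left out; TPM and left-out libraries for the within-library ratios were chosen after seeing the data. Leave-one-out fits kept the gene filter of the full comparison.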

Additional observations from a re-analysis of the deposited data

How the results depend on the processing

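Ly6c1 stayed lower in mLN and past the threshold in 18 of 18 alternatives (-0.86 to -0.48), and Ly6k kept its direction and was never called. The summed Ly6c1 and Ly6c2 level and the Ly6c1 share kept their direction in all of theirs. Their side of the threshold could not change, because exact permutation of so few libraries cannot go below 0.1. Ly6a was not called on log2(TPM + 1) (-0.11), log2(TPM + 0.1) (-0.11) or with the length trend removed (-0.12). Thy1 turned to 0.023 on both TPM scales and was not called with the length trend removed (-0.13). Ly6e passed the threshold on log2(TPM + 1) (0.36), log2(TPM + 0.1) (0.36) and after removal of the length trend (0.34). Ly6d missed it with limma-voom (-1.84), log2(TPM + 1) (-1.21), its median-centred form (-1.46), log2(TPM + 0.1) (-1.71) and the length trend removed (-1.61), and Cd44 on log2(TPM + 1) (-0.086), its median-centred form (-0.33), log2(TPM + 0.1) (-0.094) and after removal of the GC trend (-0.24). Ly6c2, never called, turned positive with limma-voom (0.085), log2(TPM + 1) (0.25), its median-centred form (0.0025), log2(TPM + 0.1) (0.31), and with the length (0.21) or GC (0.046) trend removed. On log2(TPM + 1) and log2(TPM + 0.1) respectively, Pdlim1 turned to 0.037 and 0.038, AI467606 to 0.029 and 0.030, Rsrp1 to 0.083 and 0.083, Trnt1 to 0.061 and 0.062, and Cd52 to 0.0062 and 0.0062 (0.082 with the length trend removed). The causes were not tested. With the strict filter Ly6c2, Ly6d and Ly6k were not tested, so they have no value there.

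Of the 8 genes, the number called lower (5) became 1 on either TPM scale, 3 with centring and 2 with the length trend removed. The number called higher (0) became 1 on either TPM scale, after removal of the length trend and with the replicate block. Over all genes the number lower (1689) became 385, 388, 960 and 1116 on log2(TPM + 1), log2(TPM + 0.1), centred TPM and length-corrected counts, and the number higher (2010) became 805 with centring. Over the pathway lists 28 genes were lower, but 10 on either TPM scale. Without one library at a time, Cd44 ran from -0.45 to -0.27, Ly6d from -2.25 to -1.42, Ly6c2 from -0.42 to 0.45, the number of the 8 genes called lower from 3 to 5, the Cd44 transcript length difference from -85.4 to 96.1 nucleotides, and the log2 ratio of Ly6a to Cd44 from -0.091 to 0.0091.

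The replicate numbers were not treated as pairs: deviations of same-numbered libraries correlated at 0.0793, 0.0332 and 0.138. Each of the 6 libraries correlated best with its own number, a hint from the data and not from the design. With the replicate block 4705 genes were called against 3699, Ly6e became called (0.11, adjusted p = 0.0147, edgeR), and Ly6c2 turned to 0.072. At 2 to 46 counts per library, depth limits Ly6d, and Ly6c2 and Ly6k are limited likewise.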
